A study of Homo sapiens with 6 samples.

Results

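The DNA replication machinery is described here as a set of 46 genes whose products license origins, open the double helix, copy both strands and repackage the new DNA. The genes were chosen by name, as subunits of the standard replication complexes, and with earlier results of these data known. Some subunits of these complexes, such as POLD4 and POLE4, lie outside the set. All 46 were found by symbol among the 56305 genes counted, and all 46 passed the filter on low counts that left 20399 genes for testing. MOLM13, the source of every library, is an established acute myeloid leukemia (AML) cell line. It is described with a FLT3 internal tandem duplication (FLT3-ITD) and a t(9;11)(p22;q23) translocation. Neither lesion was looked for in these counts. RNA from MOLM13 cells was sequenced after 24 h with DMSO, the vehicle, or with 1 µM ZW27941, in 3 libraries per condition. ZW27941 is a PROTAC, a bivalent molecule that brings the RNA methyltransferase METTL3 to the VHL ubiquitin ligase for degradation, and the labels place the experiment in a study of METTL3 and the AML cell cycle. The cells are 1 cell line at 1 dose and 1 time, and the labels do not say whether the 3 replicates were separate cultures. The p-values therefore measure the spread between these libraries, which may be technical.

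Replication begins when the origin recognition complex (ORC), CDC6 and CDT1 load the MCM2-7 helicase onto DNA before S phase, a step that geminin (GMNN) blocks afterwards. CDC45 and the GINS complex then turn MCM2-7 into an active helicase, DNA polymerase alpha-primase lays down primers, and polymerases epsilon and delta extend the leading and lagging strands on the PCNA clamp. Many of these genes are classic targets of E2F transcription factors and peak around the G1/S transition, so in bulk RNA a change in the share of cells in a phase and a change in RNA per cell cannot be told apart.

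The libraries held between 143454176 and 178744976 counts on genes, of which the 46 genes took between 648783 and 846724. Every member was therefore deeply counted: the lowest was ORC5, with 1659 counts in ZW27941 replicate 2. METTL3 mRNA itself was at 121.5 ± 1.17 CPM (counts scaled to library size; mean ± SD, n = 3) on DMSO and 122.6 ± 4.96 on ZW27941 (adjusted p = 0.765), and since the degrader acts on the protein this does not check the labels. All 10 myeloid markers examined were present, from 46.6 to 963 CPM on DMSO, among them FLT3 at 563 and CD33 at 66.4 CPM. Of these 10, 4 rose (40%), with CSF1R and LYZ the clearest, and FUT4 fell (10%), beside 16.3% and 13.8% of all genes tested. The sum of the 10 went from between 2627 and 2677 CPM to between 2848 and 2918 CPM. LYZ weighs most in this sum, and alone went from 962.8 to 1160 CPM. Of 9 markers of T, B, red, epithelial, stromal and endothelial cells, HBB and CDH5 had no count in any library. The 9 together summed to between 1.33 and 2.06 CPM per library. The share of reads that fell outside annotated genes was 11.9 to 12.4% in the DMSO libraries and 10.5 to 11.4% in the ZW27941 libraries. ZW27941 replicate 3 had the most reads aligned to several places, 5.25% against 3.63 to 4.07% in the other 5 libraries. The part of either in the results below was not tested.

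Replication transcripts shifted by small amounts, and more members were called higher than lower. With edgeR's quasi-likelihood test and Benjamini-Hochberg adjustment over all genes tested, at a threshold of 0.05, 20 of the 46 genes rose on ZW27941 (43.5%), 6 fell (13%) and 20 were not called. Among all genes tested, 16.3% were called higher and 13.8% lower. The test finds small changes more readily at high counts. The genes whose mean lay in the members' range of 12.3 to 466 CPM are therefore the closer background (added after the values were seen). Of these 8868 genes 26% were called higher and 19.8% lower. The members' share called lower is below both background shares, so the count of falls is no result about them. The members' log2 fold changes ran from -0.26 (ORC5) to 0.34 (FEN1), with a median of 0.045, beside -0.0019 over all genes tested. In linear terms the extremes were a level 16.5% lower and a level 26.4% higher.

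The separation of the libraries was of the same kind. In 23 of the 46 genes all 3 ZW27941 libraries lay above all 3 DMSO libraries, beside 21.7% of all genes tested. In 6 they all lay below, a smaller share than the 19.9% of all genes tested. Separation is also easier at high counts, and the shares at the members' level were not computed. Together the members made up 0.452, 0.451 and 0.442% of the counts in the 3 DMSO libraries and 0.474, 0.470 and 0.476% in the 3 ZW27941 libraries. Every ZW27941 library thus gave the 46 genes together a larger share than any DMSO library. Abundant members weigh most in this sum, and MCM3 alone went from 334.6 to 394.7 CPM. The log2 fold change was above 0 in 30 of the 46 genes. The number of members called higher fell to 13 when DMSO replicate 3 was left out and to 15 when the upper quartile replaced TMM as the scaling factor, a change that also moved the share of lower calls among all called genes from 45.8 to 57.9%. The upper quartile ended the calls of MCM5, MCM10, ORC2, PCNA and RFC2, RLE scaling and DESeq2 that of MCM10, library size scaling that of CDC6 and no filter on low counts that of RPA2.

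**Figure D1:**
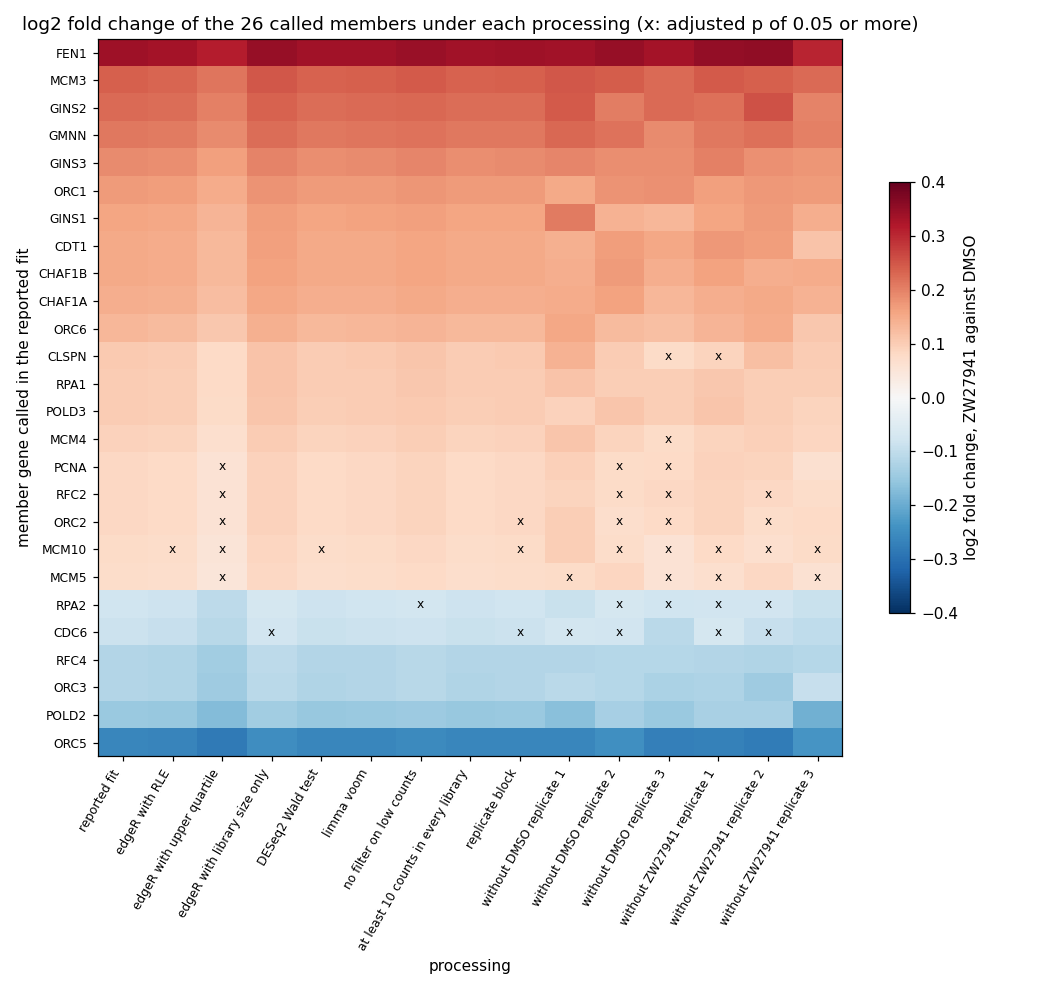
Colours give the log2 fold change of the 26 called members (rows) in the reported fit and under the 14 alternatives (columns), and a cross marks an adjusted p of 0.05 or more. No row changes colour from red to blue or back, and the crosses gather in the rows of smaller change, such as MCM10, CDC6 and MCM5, while 17 rows have none.

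**Figure D2:**
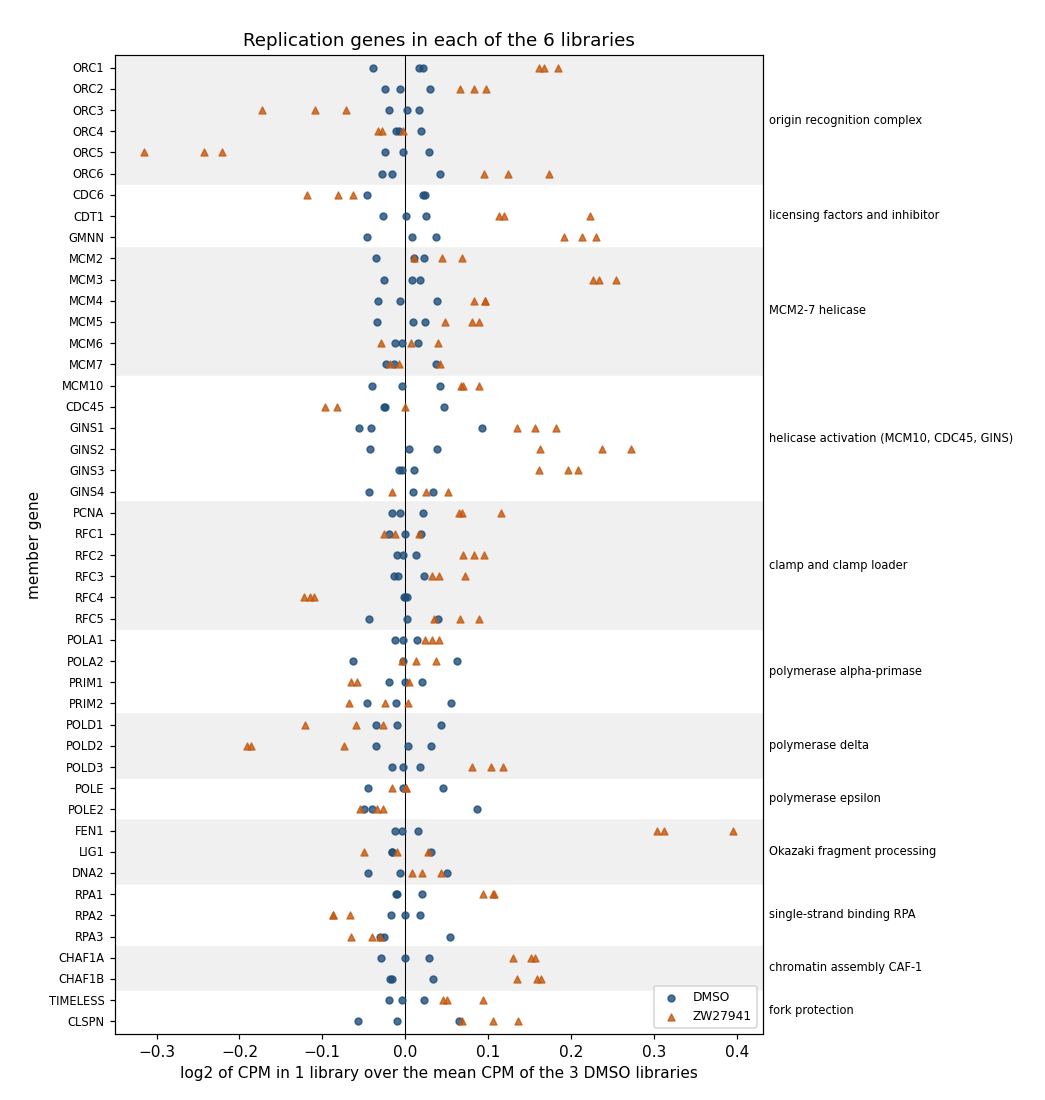
Each row is 1 replication gene, and each point gives the log2 of the CPM in 1 library over the mean of the 3 DMSO libraries (circles DMSO, triangles ZW27941). The triangles lie wholly to the right of the circles in 23 genes and wholly to the left in 6, and both kinds of row occur within ORC, the licensing factors, the clamp loader, polymerase delta and RPA.

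On a scale that takes account of length, CPM per kilobase of exon (all exons of a gene merged, GENCODE v29), PCNA was the most abundant member, at 119 on DMSO. MCM3 followed at 91.7, then MCM7 at 69.9, MCM4 at 64.8 and CDT1 at 48.1. The lowest were ORC5 at 3.60, GINS3 at 3.57 and ORC4 at 3.24. On this scale ORC4, ORC5 and GINS3 transcripts were thus far scarcer than those of the helicase that their products help to load or activate. The order of members can change with the length used. Merged exons span 3724 bases in ORC5 and 5105 in GINS3, while their longest protein-coding transcripts have 1958 and 2274. The order on transcript length was not computed.

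**Figure D3:**
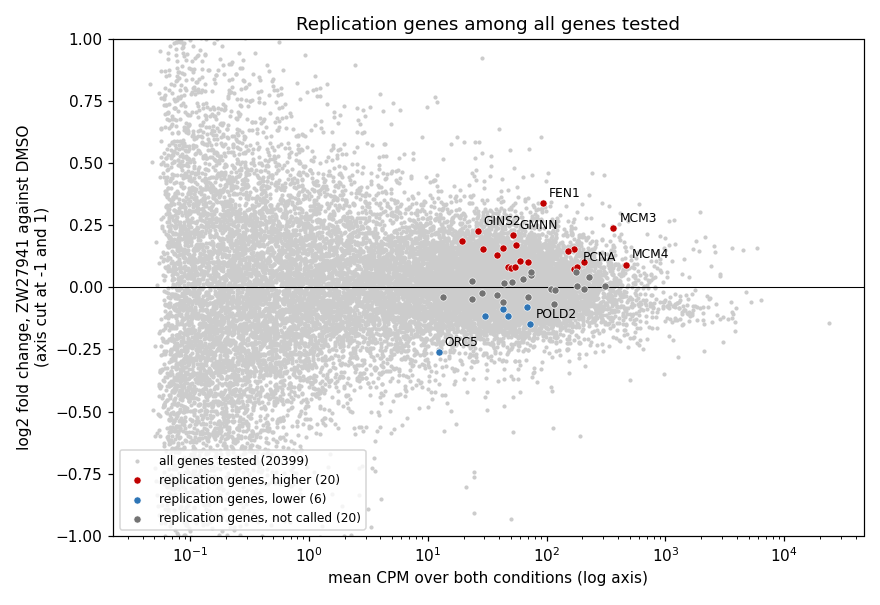
Mean CPM over both conditions (log axis) against the log2 fold change on ZW27941 for all 20399 genes tested (grey) and for the 46 replication genes (red higher, blue lower, dark grey not called); 325 genes beyond -1 or 1 are not drawn. The members sit among well-counted genes and within the band of small changes, from -0.26 to 0.34.

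Because E2F factors are the best known regulators of this gene set, the promoters were searched for the letters TTTCCCGC, TTTCGCGC, TTTGCCGC and TTTGGCGC on both strands. Promoters were RefSeq sequences on GRCh38.p14, from 250 bases before to 50 bases after the transcription start, and 39 of the 46 members had one; the others were DNA2, GINS4, MCM4, MCM5, POLD3, RPA2 and RPA3. The 8-letter E2F motif was present in 18 of the 39 (46.2%), in 3.33% of all 27305 promoters and in 5.21% of the 10748 promoters of genes tested. Matches lying wholly before the start in MCM7, POLA1, POLA2 and POLE, which were not called, are not printed. The stretches below are written 5′ to 3′ on the gene's own strand, with the match in capitals. They were picked to include genes that rose, fell or were not called. They are ORC3 (chr6:87590103-87590134, + strand), CDT1 (chr16:88803734-88803781, +), MCM3 (chr6:52284889-52284936, - strand), MCM6 (chr2:135876502-135876615, -), GINS2 (chr16:85688958-85689005, -), PCNA (chr20:5126654-5126701, -), RFC3 (chr13:33818074-33818121, +) and LIG1 (chr19:48170431-48170478, -). All end before the RefSeq start site used here. Those of ORC3, CDT1, GINS2, RFC3 and LIG1 lie inside the GENCODE v29 gene, which begins further upstream.
ORC3: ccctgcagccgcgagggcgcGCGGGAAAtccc
CDT1: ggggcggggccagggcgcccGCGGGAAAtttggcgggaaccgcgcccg
MCM3: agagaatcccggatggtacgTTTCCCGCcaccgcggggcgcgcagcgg
GINS2: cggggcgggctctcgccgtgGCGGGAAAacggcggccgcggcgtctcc
PCNA: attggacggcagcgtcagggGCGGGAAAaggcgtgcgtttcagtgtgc
RFC3: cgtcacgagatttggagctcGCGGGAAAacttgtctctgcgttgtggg
LIG1: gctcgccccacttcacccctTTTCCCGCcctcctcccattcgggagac
MCM6: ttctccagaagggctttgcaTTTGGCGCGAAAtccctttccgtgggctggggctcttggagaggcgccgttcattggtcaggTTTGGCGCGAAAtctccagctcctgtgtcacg

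The same 8 letters, GCGGGAAA, stood before the RefSeq start of ORC3, which fell, of CDT1, GINS2 and PCNA, which rose, and of RFC3, which was not called. MCM6 held the capital letters at 2 places, and each counts as a pair of overlapping matches, TTTGGCGC on the gene's strand and TTTCGCGC on the other, read here as GCGCGAAA. The E2F letters were found in 7 of 17 promoters of members that rose (41.2%), in 2 of 5 of those that fell (40%) and in 9 of 17 of those not called (52.9%). The median log2 fold change was 0.037 over the 18 members with a match and 0.064 over the 21 without. FEN1, GMNN, ORC1, CHAF1A and CHAF1B rose with no match to these letters in the window, which says nothing about E2F binding. The CCAAT box (CCAAT, both strands) was present in 23 of 39 member promoters (59%) and in 36.5% of those of genes tested. The letters TTTGAA, the CHR element of genes expressed late in the cell cycle, were present in 0 of 39 and in 10.2%. A match of letters describes the sequence and is not a measured site.

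**Figure D4:**
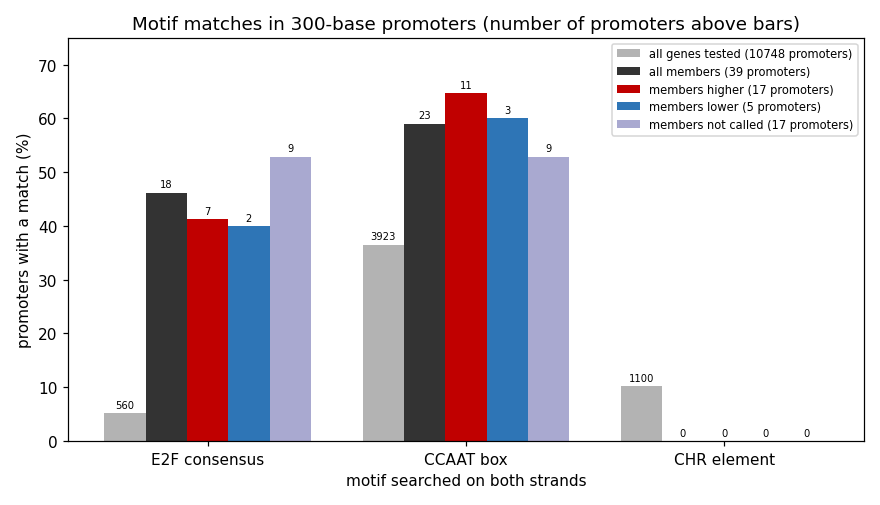
Bars give the percentage of 300-base promoters with a match to each motif on either strand for all genes tested, all members and members by call, with the number of promoters above each bar. The E2F bars stand at 46.2% for all members against 5.21% for genes tested and differ little by call (41.2, 40 and 52.9%), and no member has the CHR letters.

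In the origin recognition complex, the ring of subunits that marks origins, some subunits were called higher and others lower. At the members' level 26% of genes were called higher and 19.8% lower. Complexes of so few genes, here and below, cannot be set apart from these shares. ORC1, ORC2 and ORC6 rose, ORC3 and ORC5 fell, and ORC4 was not called. ORC1, the subunit that appears and is degraded with the cell cycle (chr1:52372829-52404459 in GENCODE v29 on GRCh38, as for the genes that follow), measured 50.2, 52.2 and 52.4 CPM in the DMSO libraries and 58.6, 57.7 and 57.9 CPM in the ZW27941 libraries. Every ZW27941 library was above every DMSO library, and the log2 fold change was 0.17 (SE 0.027, adjusted p = 5.44e-05). ORC5, an ATP-binding subunit of the core (chr7:104126341-104208047), measured 13.4, 13.7 and 13.2 CPM on DMSO and 11.3, 11.5 and 10.8 CPM on ZW27941. It was lower in all 3 ZW27941 libraries, by -0.26 on the log2 scale (SE 0.043, adjusted p = 8.14e-05), the largest fall among the members.

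ORC3, another core subunit (chr6:87590067-87667453), was at 32.0, 31.7 and 31.2 CPM on DMSO and 29.3, 30.1 and 28.04 CPM on ZW27941 (log2 fold change -0.12, SE 0.032, adjusted p = 0.00727), again without overlap. ORC6 rose by 0.13 (adjusted p = 0.00226) and ORC2 by 0.082 (adjusted p = 0.0273). The ORC2 call was lost without DMSO replicate 2, DMSO replicate 3 or ZW27941 replicate 2, with adjusted p of 0.104, 0.0807 and 0.103. ORC4 differed by -0.022, with a 95% confidence interval of -0.083 to 0.040. The opposite movement also shows in count ratios taken within a library, which need no scaling: ORC5 counts per ORC1 count were 0.267, 0.262 and 0.252 on DMSO and 0.193, 0.199 and 0.186 on ZW27941. This ratio and those given below were chosen, among 10 pairs, after the values were seen and have no test.

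Of the 3 genes that govern helicase loading, CDT1 and GMNN were called higher and CDC6 lower. CDT1, the loading factor that is destroyed when S phase begins (chr16:88803213-88809258), measured 157.6, 163.4 and 160.7 CPM on DMSO and 173.7, 174.5 and 187.4 CPM on ZW27941, a log2 fold change of 0.15 (SE 0.028, adjusted p = 2.81e-04). GMNN, which encodes the inhibitor of CDT1 (chr6:24774931-24786099), was at 50.0, 49.0 and 47.2 CPM on DMSO and rose to 56.5, 55.6 and 57.2 CPM, by 0.21 (SE 0.028, adjusted p = 6.85e-06). Both the loader and its inhibitor were thus higher in every ZW27941 library.

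CDC6, the ATPase that recruits CDT1 and MCM2-7 to ORC (chr17:40287633-40304657), went the other way. Its level was 45.1, 45.1 and 43.0 CPM on DMSO and 40.9, 42.0 and 42.5 CPM on ZW27941, a log2 fold change of -0.087 (SE 0.030, adjusted p = 0.0289), and the groups came close without overlapping. The CDC6 call did not survive leaving out DMSO replicate 1, DMSO replicate 2, ZW27941 replicate 1 or ZW27941 replicate 2 (adjusted p = 0.111, 0.109, 0.136 and 0.0583). CDC6 counts per CDT1 count were 0.277 ± 0.00939 on DMSO and 0.234 ± 0.00689 on ZW27941, with no overlap, while GMNN counts per CDT1 count, at 0.303 and 0.316, overlapped between the conditions.

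Of the MCM2-7 genes, whose products form the 6-subunit helicase, MCM3, MCM4 and MCM5 rose, and MCM2, MCM6 and MCM7 were not called. MCM3 (chr6:52264009-52284881) carried the main change, with 338.8, 336.6 and 328.6 CPM on DMSO and 391.4, 393.6 and 399.0 CPM on ZW27941. Its log2 fold change was 0.24 (SE 0.024, adjusted p = 1.91e-07), and no library came near the other condition. MCM4 rose by 0.092 (adjusted p = 0.00729) and MCM5 by 0.073 (adjusted p = 0.0301). MCM4 lost its call without DMSO replicate 3 (adjusted p = 0.0668). MCM5 lost its call without DMSO replicate 1, DMSO replicate 3, ZW27941 replicate 1 or ZW27941 replicate 3, with adjusted p between 0.0536 and 0.167.

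MCM6 and MCM7 barely differed in their means. MCM7 was at 303.8, 314.6 and 301.6 CPM on DMSO and 305.1, 302.7 and 315.6 CPM on ZW27941, so that the conditions overlapped throughout. The 95% confidence interval of the log2 difference ran from -0.048 to 0.059 for MCM7, from -0.045 to 0.058 for MCM6 and from -0.011 to 0.094 for MCM2. MCM3 counts per MCM7 count rose from 1.09 ± 0.0226 to 1.28 ± 0.0180.

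Of the 6 helicase activation genes, 4 were called higher and none lower, beside 26% and 19.8% of genes at the members' level. GINS2 (chr16:85676198-85690073) was at 24.9, 23.6 and 24.3 CPM on DMSO and 28.6, 27.2 and 29.3 CPM on ZW27941 (log2 fold change 0.23, SE 0.034, adjusted p = 3.23e-05). GINS3 (chr16:58295080-58406144) was at 18.4, 18.2 and 18.2 CPM against 20.4, 20.9 and 21.1 CPM, a rise of 0.19 (SE 0.033, adjusted p = 1.61e-04). GINS1 (chr20:25407727-25452628) was at 43.7, 39.8 and 39.4 CPM against 45.7, 45.0 and 46.4 CPM, a rise of 0.16 (SE 0.034, adjusted p = 0.00117). These 3 subunits of the GINS tetramer were higher in every ZW27941 library; for GINS1, DMSO replicate 1 came closest to them.

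GINS4, the remaining subunit, differed by 0.020 with an interval of -0.040 to 0.081. MCM10, a scaffold needed to fire the assembled helicase, rose by 0.076 (adjusted p = 0.0454). Its call depended on every library but DMSO replicate 1: leaving out any of the other 5 gave adjusted p between 0.0512 and 0.211. CDC45, which completes the active helicase together with GINS, was not called (-0.059, interval -0.12 to 0.0067), and it was called lower without ZW27941 replicate 3 (adjusted p = 0.0259).

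PCNA, the sliding clamp that holds polymerases on DNA, was at 177.9, 173.3 and 174.5 CPM on DMSO and 183.2, 183.7 and 189.8 CPM on ZW27941. It rose by 0.083 (SE 0.025, adjusted p = 0.0133), and the call was lost without DMSO replicate 2 (adjusted p = 0.0617) or DMSO replicate 3 (adjusted p = 0.0538). Among the subunits of replication factor C, the ATPase that opens and loads the clamp, RFC4 fell and RFC2 rose. RFC4 (chr3:186789880-186807058) was at 49.2, 49.3 and 49.2 CPM on DMSO and 45.5, 45.6 and 45.3 CPM on ZW27941, a log2 fold change of -0.12 (SE 0.027, adjusted p = 0.00196). The step of RFC4 was small. The SD between its replicates was 0.0548 CPM on DMSO and 0.173 CPM on ZW27941, but an SD from 3 libraries is no measure of precision. The SE of RFC4 was like that of RFC2, 0.026.

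RFC2 was at 53.4, 52.6 and 52.9 CPM against 55.6, 56.1 and 56.6 CPM, a rise of 0.083 (adjusted p = 0.0196). Without DMSO replicate 2, DMSO replicate 3 or ZW27941 replicate 2 the adjusted p of RFC2 was 0.0613, 0.0613 and 0.0582. RFC4 counts per RFC2 count were 0.930 ± 0.00841 on DMSO and 0.810 ± 0.00902 on ZW27941. RFC1, RFC3 and RFC5 were not called, at -0.0067, 0.048 and 0.063, although all ZW27941 libraries of RFC3 lay above those of DMSO. RFC5 passed the threshold only without DMSO replicate 1 (adjusted p = 0.0482) among the 14 alternatives.

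None of the 4 subunits of polymerase alpha-primase, which starts each new strand, was called. PRIM1, the catalytic primase subunit and the one with the lowest p among them, was at 71.2, 70.2 and 72.2 CPM on DMSO and 68.4, 71.4 and 68.0 CPM on ZW27941 (log2 fold change -0.040, SE 0.027, adjusted p = 0.294). The groups overlapped, and the interval of the difference was -0.096 to 0.016. POLA1, POLA2 and PRIM2 lay at 0.032, 0.016 and -0.030. Of polymerase epsilon, the leading-strand enzyme, neither member was called: POLE, the catalytic subunit, differed by -0.0047 (interval -0.058 to 0.048). POLE2 was at 14.3, 13.1 and 13.0 CPM against 13.2, 13.0 and 13.2 CPM, a difference of -0.038 (SE 0.043, interval -0.13 to 0.053, adjusted p = 0.566). The small epsilon subunits lie outside the 46 genes, and of these POLE3 rose from 91.4 ± 2.44 to 100.7 ± 3.07 CPM (0.14, adjusted p = 6e-04), while POLE4 was not called (-0.092, adjusted p = 0.0763).

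In polymerase delta, the lagging-strand enzyme, the accessory subunit POLD2 was called lower and the accessory subunit POLD3 higher. POLD2 (chr7:44114681-44124358) was at 74.2, 77.7 and 76.2 CPM on DMSO and 66.9, 66.6 and 72.2 CPM on ZW27941, a log2 fold change of -0.15 (SE 0.031, adjusted p = 7.94e-04). POLD3, which binds PCNA, was at 66.2, 67.8 and 66.8 CPM against 70.8, 72.0 and 72.7 CPM, a rise of 0.10 (adjusted p = 0.00466). Neither gene's groups overlapped, and POLD2 counts per POLD3 count fell from 1.14 ± 0.0132 to 0.955 ± 0.0351. POLD1, the catalytic subunit, was not called (-0.068, interval -0.13 to -0.0089, adjusted p = 0.0768), and it was called lower without ZW27941 replicate 3 (adjusted p = 0.0102) or with the upper quartile (adjusted p = 0.0180).

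FEN1, the nuclease that removes the 5′ flaps of Okazaki fragments, rose more than any other member. Located at chr11:61792637-61797244, it was at 82.1, 83.3 and 81.7 CPM in the DMSO libraries and 102.3, 101.7 and 108.4 CPM in the ZW27941 libraries. All 3 ZW27941 libraries lay far above the DMSO range, with a log2 fold change of 0.34 (SE 0.028, adjusted p = 8.75e-09). By p-value FEN1 ranked 72 among all genes tested. The partners of FEN1 in the same step were not called: LIG1, the ligase that seals the fragments, differed by -0.010 (interval -0.065 to 0.045), and DNA2, which trims long flaps, by 0.025. FEN1 counts per LIG1 count were 0.706, 0.693 and 0.702 on DMSO and 0.875, 0.894 and 0.903 on ZW27941. Of the exon bases of FEN1, 8.68% are shared with FADS2, annotated on the same strand, or TMEM258, on the opposite strand, and the strand setting of the counting is not given in the sources used here. In all, 20 members share exon bases with another annotated gene, and in 6 of them the share exceeds 10%: POLA2, MCM2, GINS4, PRIM1, GINS3 and RFC5.

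RPA, the trimer that coats single-stranded DNA, had 1 subunit up, 1 down and 1 not called. RPA1, its large DNA-binding subunit (chr17:1829702-1900082), was at 200.4, 196.1 and 196.3 CPM on DMSO and 210.9, 212.7 and 212.9 CPM on ZW27941 (log2 fold change 0.10, SE 0.024, adjusted p = 0.00192). RPA2, the subunit phosphorylated under replication stress (chr1:27891524-27914746), was at 68.9, 70.6 and 69.8 CPM against 65.6, 65.7 and 66.6 CPM, and fell by 0.080 on the log2 scale (SE 0.026, adjusted p = 0.0203). Neither pair of groups overlapped. RPA2 lost its call without DMSO replicate 2, DMSO replicate 3, ZW27941 replicate 1 or ZW27941 replicate 2, with adjusted p between 0.0620 and 0.0784. RPA2 counts per RPA1 count were 0.353 ± 0.00838 and 0.311 ± 0.00211, and RPA3 differed by -0.046 (interval -0.11 to 0.023).

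CHAF1A and CHAF1B, the large and middle subunits of the CAF-1 chaperone that deposits histones on newly copied DNA, rose. RBBP4, the small subunit, which other complexes share and which lies outside the 46 genes, was not called (0.026, adjusted p = 0.476). CHAF1A (chr19:4402662-4445018) was at 142.8, 145.7 and 139.9 CPM on DMSO and 158.6, 156.3 and 159.2 CPM on ZW27941 (log2 fold change 0.15, SE 0.025, adjusted p = 1.01e-04). CHAF1B (chr21:36385378-36419015) was at 27.3, 28.3 and 27.3 CPM against 30.3, 31.0 and 30.8 CPM (0.15, SE 0.030, adjusted p = 5.41e-04). The libraries of the conditions were well apart for CHAF1A and CHAF1B. CLSPN, the adaptor that couples the fork to the checkpoint kinase (chr1:35720218-35769967), was at 59.7, 56.6 and 54.8 CPM against 62.7, 59.8 and 61.4 CPM and rose by 0.10 (SE 0.031, adjusted p = 0.0125). The lowest ZW27941 library of CLSPN lay only just above DMSO replicate 1, and the call was lost without DMSO replicate 3 (adjusted p = 0.102) or ZW27941 replicate 1 (adjusted p = 0.0658). TIMELESS, its fork-protection partner, differed by 0.064 and was not called (adjusted p = 0.0538), although it passed with DESeq2, limma's voom or library size scaling (adjusted p = 0.0341, 0.0452 and 0.0250).

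**Figure D5:**
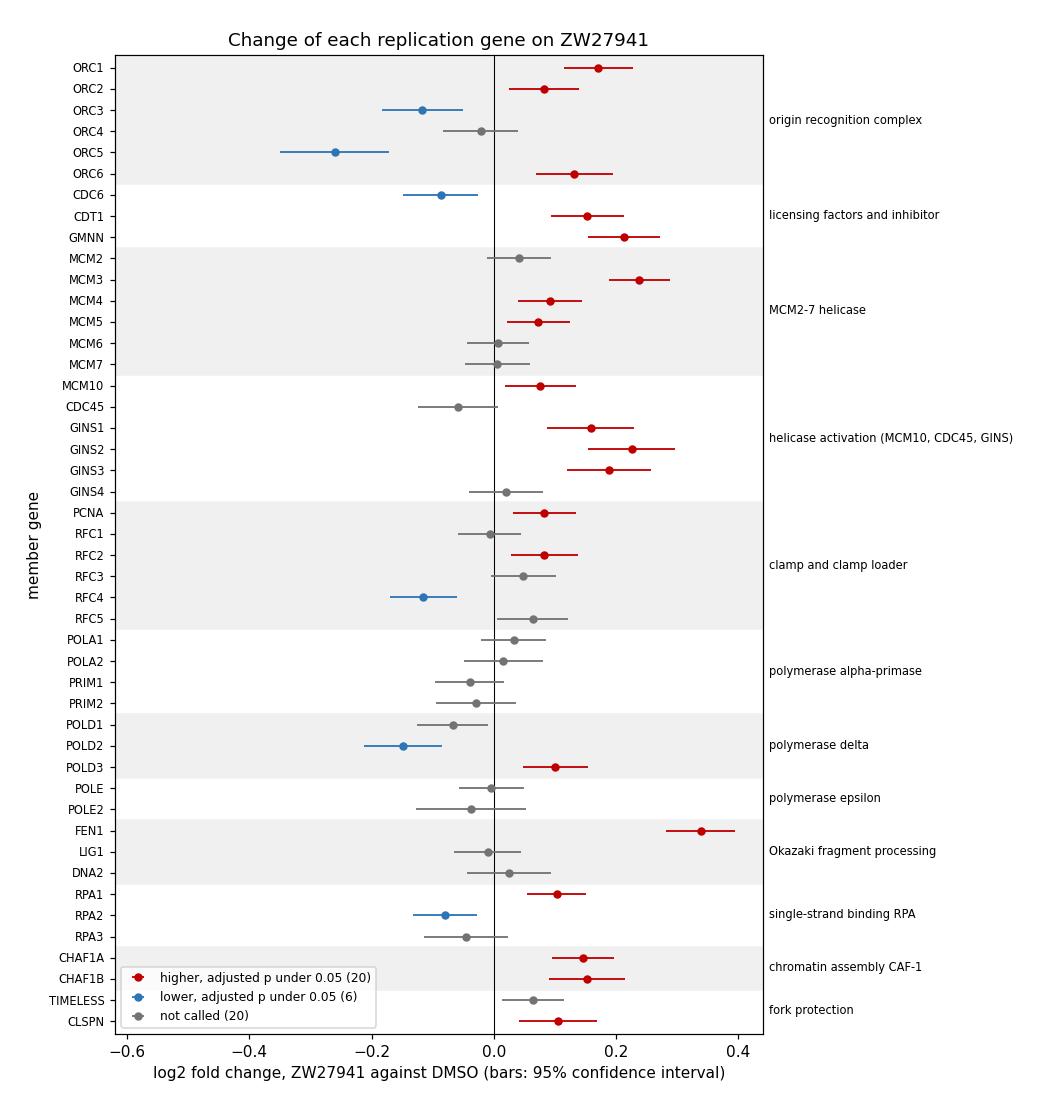
Points give the log2 fold change of each replication gene on ZW27941 against DMSO and bars its 95% confidence interval (red higher, blue lower, grey not called), grouped by complex. FEN1 stands furthest right at 0.34 and ORC5 furthest left at -0.26, and red and blue points occur together in ORC, the licensing factors, the clamp loader, polymerase delta and RPA.

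Factors that work at the fork or at firing but lie outside the 46 genes are given for comparison. Of 34 such genes 17 rose, 2 fell and 15 were not called, with a median log2 fold change of 0.076. The shares, 50% and 5.88%, stand beside 16.3% and 13.8% of all genes tested and 26% and 19.8% at the members' level. ASF1B, a histone chaperone that hands histones to CAF-1, rose from 69.0 ± 0.947 to 86.3 ± 1.58 CPM (0.32, adjusted p = 6.53e-09). DBF4, the activating subunit of the CDC7 kinase that fires origins, rose from 25.4 ± 0.321 to 28.9 ± 0.511 CPM (0.18, adjusted p = 8.65e-05). The lower ones were SSRP1, a subunit of the histone chaperone FACT, from 303.0 ± 2.16 to 275.4 ± 8.07 CPM (-0.14, adjusted p = 2.59e-04), and POLD4, the smallest polymerase delta subunit, from 11.3 ± 0.170 to 10.3 ± 0.398 CPM (-0.14, adjusted p = 0.0247).

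Among the E2F, DP, pocket protein and DREAM complex genes, which encode regulators of replication genes, 3 of 18 rose, 1 fell and 14 were not called, with a median of 0.025. The 16.7% called higher is near the 16.3% of all genes tested, and the 5.56% called lower stands beside 13.8%, so the count is no result about these regulators. RB1, the retinoblastoma repressor of E2F, was the lower one, from 210.8 ± 5.29 to 192.8 ± 3.49 CPM (-0.13, adjusted p = 5.26e-04). E2F8, an atypical repressor, rose from 46.7 ± 0.769 to 51.3 ± 0.648 CPM (0.13, adjusted p = 6.85e-04), and TFDP1, the DNA-binding partner of E2F, from 319.9 ± 9.19 to 345.6 ± 4.93 CPM (0.11, adjusted p = 0.00208). E2F1 differed by 0.024 and was not called (adjusted p = 0.622).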

How the data were processed

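Per the submitters' processing notes, the tools were HISAT2, SAMtools 1.19.2 and HTSeq 2.0.3 on hg38; the annotation and strand setting are not given in the sources used here. The authors deposited raw HTSeq counts per gene symbol for each library, neither normalized nor filtered. The 5 HTSeq tallies of unassigned reads, 37.4 to 39.8% of each library, were left out. The labels state 50M raw reads per sample, fewer than the counts on genes, for a reason not given.

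Differential expression was tested with edgeR 4.0.16 under R 4.3.3 (filterByExpr, TMM, quasi-likelihood test, no covariate), with Benjamini-Hochberg adjustment over all genes tested and a threshold of 0.05. CPM used TMM factors between 0.994 and 1.009. Libraries were grouped by the labels. Each library counted as 1 sample. Pairs of replicates had a chi-square per degree of freedom of 4.34 to 11.5. The highest, 11.5 and 7.79, were those of ZW27941 replicate 3 with ZW27941 replicates 1 and 2. The other pairs lay between 4.34 and 5.13. Because the counts on genes exceed the stated reads, a read may have been counted more than once. The chi-square therefore cannot tell differences between replicates from sampling noise. Alternatives were RLE, upper quartile and library size scaling, DESeq2 1.42.0, limma 3.58.1 (voom), other filters, a replicate block and leaving out each library. Scripts were tested on simulated data.

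The members and lists were chosen with earlier results of these data known. Values per library are given for the 12 members with the lowest p, every member called lower and the lowest p of each complex, and for further members that a sentence turns on, chosen after their values were seen. In other lists the rule named up to 2 genes per direction. Locations and exon lengths are from GENCODE v29 (GRCh38) and promoters from RefSeq (GRCh38.p14), matched by symbol with the first entry per gene.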

Additional observations from a re-analysis of the deposited data

How the results depend on the processing

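No called member changed direction in any of 14 alternatives, and 13 of the 20 higher and 4 of the 6 lower kept their call in all. The others (CDC6, CLSPN, MCM10, MCM4, MCM5, ORC2, PCNA, RFC2 and RPA2) have log2 fold changes between -0.087 and 0.10 in the reported fit. Leaving out 1 library gave 13 to 20 members called higher, 13 without DMSO replicate 3, and a median log2 fold change of 0.041 to 0.056. With the upper quartile 15 were called higher and 7 lower, with a median of 0.021, and the median over all genes moved to -0.025. The replicate block gave 18 higher and 5 lower and lost CDC6, MCM10 and ORC2. The reported fit did not pair same-numbered libraries, whose deviations correlated at -0.012, 0.0100 and 0.015. These correlations cannot tell whether the cultures were paired. METTL3, not called, ran from -0.023 to 0.035 without 1 library and was -0.010 with the upper quartile. Signs changed in uncalled members: MCM6 -0.017, MCM7 -0.018, GINS4 -0.0031 and POLA2 -0.0078 with the upper quartile, RFC1 0.0034 and POLE 0.0053 with library size only, and POLE 0.00078 with no filter. Without 1 library the ranges were MCM6 -0.013 to 0.023, MCM7 -0.015 to 0.025, GINS4 -0.00046 to 0.038, POLA2 -0.014 to 0.048, RFC1 -0.020 to 0.0040, POLE -0.026 to 0.019, POLE2 -0.062 to 0.0078 and LIG1 -0.032 to 0.0081. The cause was not tested.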

Other observations

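Of 15 tested DNA polymerase genes of repair, bypass and mitochondria, 3 rose, 3 fell and 9 were not called, with a median log2 fold change of -0.0095, and DNTT had no count. These shares, 20% in each direction, are near the background of 16.3% higher and 13.8% lower over all genes tested, or 26% and 19.8% at the level of the replication genes. POLQ, the polymerase of theta-mediated end joining, rose from 63.6 ± 1.22 to 86.9 ± 1.08 CPM (n = 3 each), a log2 fold change of 0.45 (adjusted p = 4.17e-11, edgeR's quasi-likelihood test), beside a highest value of 0.34 among the 46 replication genes. PRIMPOL, which restarts stalled forks by new priming, rose by 0.17 (adjusted p = 5.88e-04). POLB, the base excision repair polymerase, went from 27.5 ± 1.73 to 24.1 ± 0.823 CPM (-0.19, adjusted p = 7.82e-04), and POLG2, the accessory subunit of the mitochondrial polymerase, from 77.0 ± 1.25 to 72.5 ± 1.2 CPM (-0.087, adjusted p = 0.0136). The difference between this list and the replication genes was not tested.

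The letters GGACT, a core of the m6A motif written by METTL3, were counted in the longest protein-coding transcript of each gene. They were present in 18 of 20 members that rose, 4 of 6 that fell and 19 of 20 not called, and in 92.2% of 12922 genes tested. The median was 0.941 per kilobase in members that rose, 0.463 in those that fell and 1.23 in those not called, beside 0.942 over genes tested. The transcripts of members that fell were short, with a median of 2060 bases against 3240 for those that rose. No m6A was measured in these libraries, and 6 transcripts allow no comparison.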
